A study of Homo sapiens with 3 samples.

Results

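Expression of 10 genes that mark the epithelial or the mesenchymal state of a cell was followed in PC3 cells with and without knockdown of USP16, a deubiquitinase of histone H2A and other proteins. They are CDH1, EPCAM and KRT18 on the epithelial side, CDH2, VIM and FN1 on the mesenchymal side, and ZEB1, SNAI1, SNAI2 and TWIST1, which encode transcription factors that promote the mesenchymal state. The 10 genes were listed by name, with earlier results of these data known but with no rule on their values, and each matched 1 of the 59719 named entries of the deposited table. Of these, 9 had a mean level of 1 TPM or more, as did 13637 genes in all, and ZEB1 did not. The TPM measure, a transcript's share of its library, divides reads by transcript length and scales every library to the same sum, so levels of different genes can be compared on this scale.

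PC3 is an established, androgen-independent human prostate cancer cell line derived from a metastasis. The study has 3 libraries, 1 each from PC3 cells expressing the control vector hairpin (shCON), shUSP16#1 or shUSP16#2. The hairpins were carried by the lentiviral vector pLKO.1. The study's methods describe stable PC3 populations selected with puromycin, but its RNA sequencing methods do not say that the sequenced cells were such populations. With 1 library per condition there was no replicate check and no test, so every difference is a description of these libraries, and depth cannot be recovered from TPM. Differences from the control are on the log2(TPM + 1) scale, negative where the hairpin library was lower, and they understate the change of genes at low level. A gene was counted as lower or higher at a threshold of 2-fold on this scale.

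In an epithelium, E-cadherin (CDH1) joins neighbouring cells at adherens junctions, EpCAM (EPCAM) is a surface adhesion molecule, and keratin 18 (KRT18) pairs with keratin 8 in the intermediate filaments of simple and luminal cells. During the epithelial-mesenchymal transition (EMT), cells lose these features and gain N-cadherin (CDH2), the intermediate filament protein vimentin (VIM) and the matrix protein fibronectin (FN1). The zinc finger factors Snail (SNAI1), Slug (SNAI2) and ZEB1 repress CDH1 by binding E-boxes with the letters CAGGTG, and Twist1 (TWIST1) is a helix-loop-helix factor of the same programme. Many carcinoma lines carry markers of both states.

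The targeted gene was read first. The level of USP16 was 19.92, 3.5 and 1.08 TPM in shCON, shUSP16#1 and shUSP16#2, so shUSP16#2 left the lower level. The sense sequences of the hairpins are shown because they define the conditions compared.
shUSP16#1: gccagaagaaatcatgtttat
shUSP16#2: cggtgatattccacaagattt
On the forward strand of GRCh38, the former lies at chr21:29054296-29054316, in the 3' untranslated part of the last exon of USP16. The latter lies in the coding sequence across an exon junction, between positions 29053942 and 29054069 of chromosome 21. Among all GENCODE release 29 transcripts, USP16 was the only gene with an exact match to either sequence of 21 bases. None of the 102 transcripts of the 10 state genes held either target, and the longest run they shared with one was 9 bases for shUSP16#1 and 10 bases for shUSP16#2.

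Several facts of the whole series touch the values below. Differences had medians of -0.17 (shUSP16#1) and -0.37 (shUSP16#2) over the 13637 genes. Differences followed the GC content of the transcripts, and across genes, which are not independent replicates, the rank correlation was 0.55 and 0.65. Medians ran from -0.61 and -1.14 in the lowest of 50 bins of GC content to 0.27 and 0.25 in the highest. The 9 tested genes are therefore also set beside the median of the genes in their own GC bin. Where the GC trend is said to be removed, that median was subtracted and the median over all tested genes added back. The role of GC content in these differences was not tested, and the library and the condition cannot be told apart. The label of the line was checked on marker genes: the prostate luminal genes KLK2 and KLK3 were at 0 in all libraries. All 6 neuroendocrine markers were under 1 TPM in every library, as were 5 of 6 immune, 3 of 4 endothelial and 7 of 8 fibroblast markers. Summed over each list the fibroblast markers were at 5.03, 11.4 and 5.18 TPM and the endothelial markers at 0.460, 0.920 and 1.39 TPM, and DCN and PDGFRA were at 0 in all libraries. Their part in the differences below was not tested.

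The control library carried both epithelial and mesenchymal transcripts at a high level. In shCON, KRT18 was highest of the 10 genes, followed by EPCAM, FN1, VIM, CDH1, SNAI2, CDH2, TWIST1, SNAI1 and ZEB1. KRT18 lay at percentile 98.8 of the levels of all tested genes, EPCAM at 96.1, FN1 at 95.4, VIM at 89.0 and CDH1 at 84.9. SNAI2 lay at percentile 63.6 and CDH2 at 51.2, while TWIST1 and SNAI1 lay at 17.0 and 14.4. The order was the same under shUSP16#1. Under shUSP16#2 only neighbours changed places: CDH1 stood above VIM, and SNAI1 above TWIST1. With 1 library per condition there is no spread against which to judge any step in this order.

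**Figure D1:**
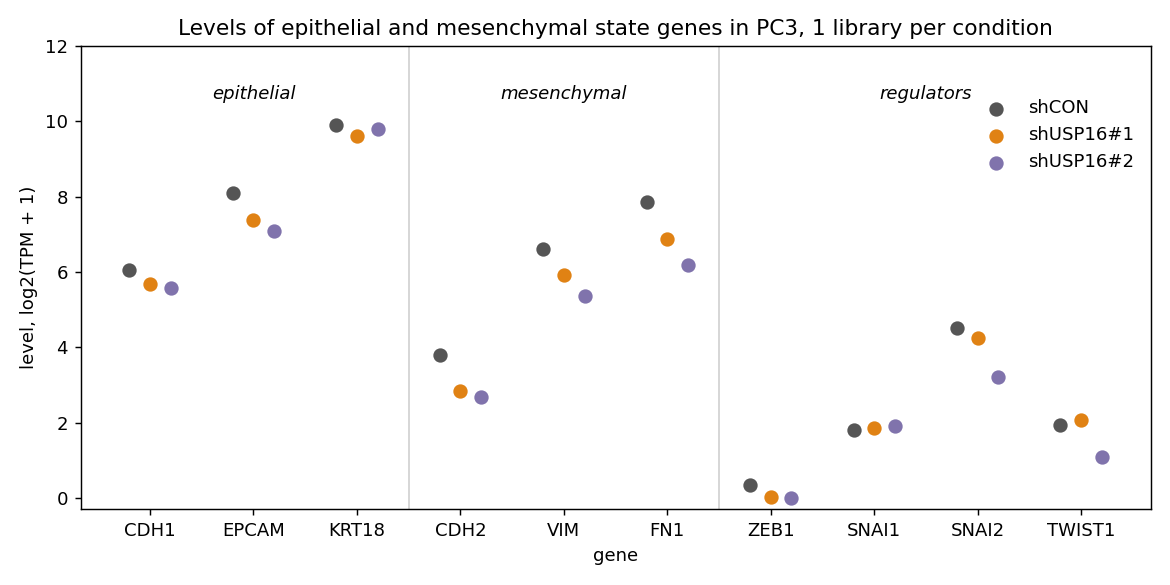
Level of each of the 10 genes on the log2(TPM + 1) scale in the shCON, shUSP16#1 and shUSP16#2 libraries, 1 point per library. KRT18 is the highest gene in all 3 libraries (947.26, 778.16 and 893.31 TPM), and ZEB1 lies at or near 0 in all 3.

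Of the 9 tested genes, 7 (77.8%) were lower under both hairpins at any size of difference, against 57.2% of all tested genes. SNAI1 alone (11.1%) was higher under both, against 24.5% of all tested genes, and TWIST1 differed in direction between the hairpins. With the GC trend removed, both SNAI1 (-0.19 and -0.25) and TWIST1 (-0.14 and -1.21) were lower under each hairpin. Those values include the negative medians over all tested genes that were added back. Relative to their GC bins alone, SNAI1 was at -0.02 and 0.12 and TWIST1 at 0.03 and -0.84. None of the 9 passed a 2-fold difference under both hairpins, where 4.60% of all tested genes were lower and 1.14% higher. Under shUSP16#1 alone no gene of the 9 passed 2-fold either way, against 5.79% of all tested genes lower and 2.83% higher. Under shUSP16#2 alone 5 of 9 (55.6%) were at least 2-fold lower, namely EPCAM, CDH2, VIM, FN1 and SNAI2, against 19.5% of all tested genes. None was 2-fold higher there, against 2.80%. The call of 5 genes under shUSP16#2 depended on the scaling, since it became 1 (FN1) when differences were centred on the median gene and 3 (VIM, FN1 and TWIST1) with the GC trend removed, scalings applied to single hairpins after seeing the data. Bulk libraries cannot tell fewer cells of a kind from less RNA per cell.

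CDH1 (ENSG00000039068), on chromosome 16, was at 65.8, 50.58 and 46.38 TPM in shCON, shUSP16#1 and shUSP16#2, the order kept wherever 3 values are given. The control was highest, and the differences of -0.37 and -0.50 lay near the medians of its GC bin, -0.15 and -0.33. EPCAM (ENSG00000119888), on chromosome 2, was at 273.5, 165.62 and 135.93 TPM. It was the epithelial gene with the greatest differences, -0.72 and -1.00, or -0.43 and -0.39 relative to its GC bin. KRT18 (ENSG00000111057), on chromosome 12, was at 947.26, 778.16 and 893.31 TPM. Its differences were -0.28 and -0.08, and -0.35 and -0.10 relative to its GC bin. Both the sign and the size depended on the scaling, being -0.11 and 0.28 when centred on the median gene and -0.53 and -0.47 with the GC trend removed. KRT8, its filament partner, was at 748.25, 622.39 and 642.43 TPM, so that the ratio of KRT8 to KRT18 was 0.790, 0.800 and 0.719. These genes overlap on opposite strands in GENCODE release 29, and whether the reads were counted by strand is not given in the sources used here. The 67 KRT18 pseudogenes in the table summed to 1.42 TPM or less in any library.

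On the log2(TPM + 1) scale FN1 showed the greatest difference of the 10 genes under each hairpin. FN1 (ENSG00000115414), on chromosome 2, was at 230.15, 115.28 and 71.14 TPM, or 50.1% and 30.9% of the control level. The differences were -0.99 and -1.68, at percentiles 6.01 and 2.96 of all tested genes, or -0.75 and -1.29 relative to its GC bin. CDH2 (ENSG00000170558), on chromosome 18, was at 12.92, 6.09 and 5.39 TPM, with differences of -0.97 and -1.12. Under shUSP16#1, FN1 and CDH2 lay just inside the 2-fold limit on the log2(TPM + 1) scale, although their TPM was 2.00 and 2.12 times lower, and both passed it when the libraries were rescaled to protein-coding genes. The transcripts of CDH2 hold 43.8% GC, and genes of that GC content had medians of -0.44 and -0.79, so CDH2 stood at -0.54 and -0.33 relative to them. VIM (ENSG00000026025), on chromosome 10, was at 96.41, 59.83 and 40.48 TPM. Its differences were -0.68 and -1.23, whereas the medians of its GC bin were 0.02 and -0.15. The antisense gene VIM-AS1, which overlaps VIM, was at 3.8, 2.13 and 1.54 TPM and was ordered in the same way.

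**Figure D2:**
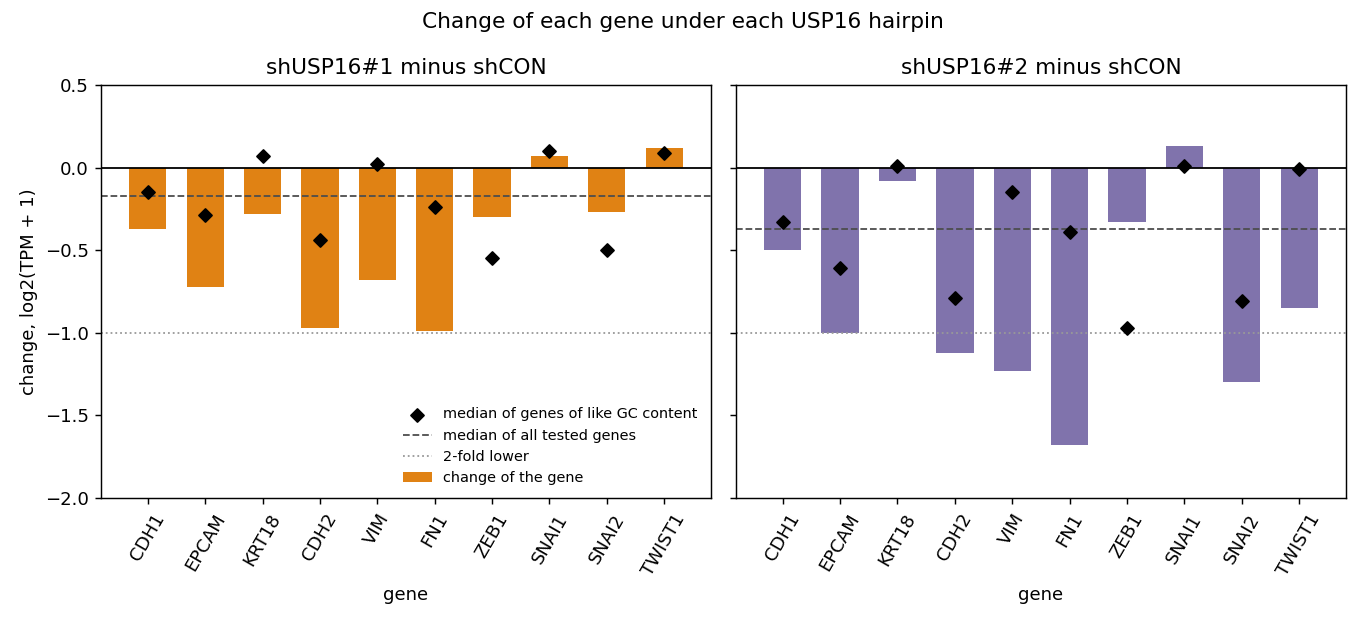
Difference of each gene from shCON on the log2(TPM + 1) scale (bars), in the left panel under shUSP16#1 and in the right under shUSP16#2, with the median of genes in the same GC bin (diamonds), the median over tested genes (dashed line) and 2-fold lower (dotted line). FN1 reaches -0.99 and -1.68, and VIM, at -0.68 and -1.23, lies below its diamonds at 0.02 and -0.15.

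The promoters of FN1 and CDH2 are shown because these genes had the greatest differences under shUSP16#1 and were lower under both hairpins. The RefSeq table used here matched 4 of the 10 genes, CDH2, FN1, VIM and ZEB1. Each window covers the 250 bases before the transcript start on the minus strand of GRCh38.p14, at chr2:215436069-215436318 for FN1 and chr18:28177131-28177380 for CDH2. Capitals mark matches to the motifs searched on both strands, which were the SNAI and ZEB E-box CAGGTG, the Myc E-box CACGTG, the cyclic AMP response element TGACGTCA and the GC box GGGCGG.
FN1: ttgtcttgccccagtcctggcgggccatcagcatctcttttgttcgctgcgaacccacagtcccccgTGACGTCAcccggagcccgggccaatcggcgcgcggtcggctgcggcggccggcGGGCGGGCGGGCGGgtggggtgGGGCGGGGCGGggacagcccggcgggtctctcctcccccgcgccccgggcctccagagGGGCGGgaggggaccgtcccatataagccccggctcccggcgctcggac
CDH2: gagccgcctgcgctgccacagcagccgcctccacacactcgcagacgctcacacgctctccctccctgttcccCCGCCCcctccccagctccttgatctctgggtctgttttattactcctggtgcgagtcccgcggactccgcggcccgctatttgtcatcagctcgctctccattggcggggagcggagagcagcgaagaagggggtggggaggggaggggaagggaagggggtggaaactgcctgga
The windows searched also take in 50 bases from the start site on. That of FN1 held 6 GC boxes, of which 5 lie in a cluster from -129 to -102 where matches overlap, and 1 cyclic AMP response element at -183, counted from the start site. That of CDH2 held 1 GC box, on the other strand at -177. GC boxes were found in 45.0% of 35116 windows of the same length and the cyclic AMP response element in 1.85%. Neither window held the E-box CAGGTG (20.6% of all windows) or CACGTG (7.26%), and nor did that of VIM, with 1 GC box. The ZEB1 window held 1 CAGGTG at -57. A match describes the letters only and is not a site of binding.

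Because a ratio of genes within a library does not depend on how that library was scaled, mesenchymal genes were set against epithelial genes in each library. The FN1 to CDH1 ratio of TPM was 3.50, 2.28 and 1.53. The VIM to CDH1 ratio was 1.47, 1.18 and 0.873, so CDH1 was the lower of the pair in shCON and the higher under shUSP16#2. For CDH2 to CDH1 the ratio was 0.196, 0.120 and 0.116. The VIM to KRT18 ratio was 0.102, 0.0769 and 0.0453. These 4 ratios were lower under each hairpin than in shCON, by log2 differences from -0.31 for VIM to CDH1 under shUSP16#1 to -1.19 for FN1 to CDH1 under shUSP16#2. They share genes, and none has EPCAM as denominator. The differences of EPCAM itself, -0.72 and -1.00, were close to those of VIM, -0.68 and -1.23, so the fall holds for the denominators used. With the GC trend removed, an alternative chosen after seeing the data, the differences of the CDH2 to CDH1 ratio went from -0.71 and -0.76 to -0.42 and -0.30. EPCAM, an epithelial gene, was also lower relative to CDH1, at 4.16, 3.27 and 2.93, a ratio added after the values were seen. The SNAI2 to CDH1 ratio, added likewise, did not share that direction under both hairpins, at 0.331, 0.354 and 0.179. A ratio of ZEB1 to CDH1 was not formed, because ZEB1 was listed at 0 under shUSP16#2.

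**Figure D3:**
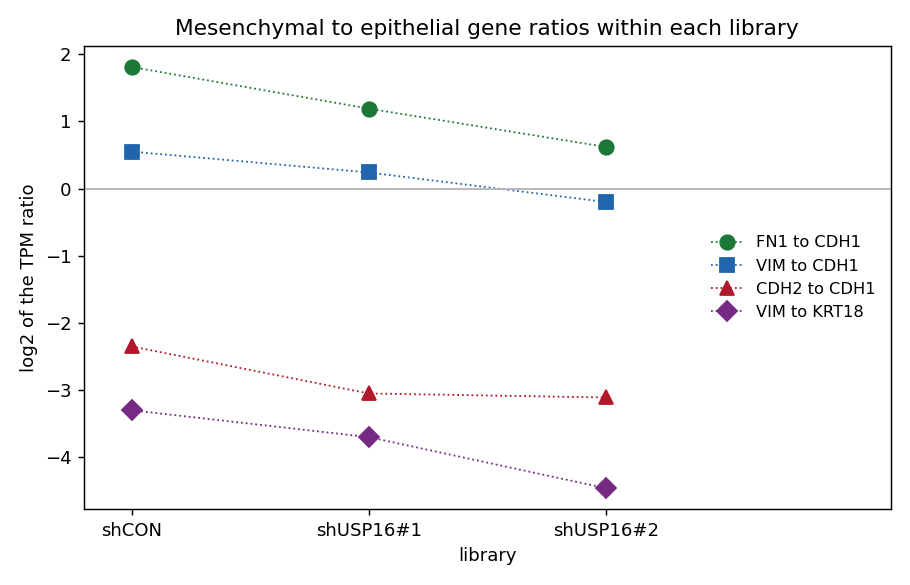
Log2 of the TPM ratio of a mesenchymal to an epithelial gene in each of the 3 libraries. Dotted lines only link points of 1 ratio, and all 4 ratios lie lower under each hairpin than in shCON, FN1 to CDH1 going from 1.81 to 1.19 and 0.62.

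Among the transcription factors, SNAI2 was the most abundant in all 3 libraries. SNAI2 (ENSG00000019549) was at 21.79, 17.9 and 8.28 TPM, differences of -0.27 and -1.30. Most of its difference was seen under shUSP16#2, while genes of its GC bin had medians of -0.50 and -0.81. SNAI1 (ENSG00000124216), on chromosome 20, was at 2.46, 2.64 and 2.78 TPM, differences of 0.07 and 0.13 that were within 0.12 of the medians of its GC bin. The SNAI2 to SNAI1 ratio was 8.86, 6.78 and 2.98, a pair chosen after the values were seen. TWIST1 (ENSG00000122691), on chromosome 7, was at 2.86, 3.2 and 1.14 TPM, with differences of 0.12 and -0.85, or 0.03 and -0.84 relative to its GC bin. ZEB1 (ENSG00000148516), on chromosome 10, was at 0.26 and 0.02 TPM in shCON and shUSP16#1 and was listed at 0 under shUSP16#2. Its paralogue ZEB2 was at 0.41, 0.25 and 0.21 TPM, and ZEB1-AS1, which overlaps ZEB1 on the opposite strand, at 1.35, 1.11 and 1.05 TPM. At these levels no difference could be read for ZEB1.

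Read in the order of remaining USP16, from shCON over shUSP16#1 to shUSP16#2, the TPM of CDH1, EPCAM, CDH2, VIM, FN1 and SNAI2 became lower at each step. That makes 6 of 9 (66.7%), against 46.5% of all tested genes. SNAI1 became higher at each step, as did 10.8% of all tested genes.

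The pair of differences of each of the 9 tested genes was compared with that of 9301 genes whose mean level was 5 TPM or more, by Euclidean distance over the 2 comparisons, which share the control. The nearest to CDH1 were CCT4 and NUDT5, to EPCAM GNL3 and STRAP, to KRT18 BUD23 and OLMALINC, and to CDH2 G3BP2 and WDR76. SEL1L and RBM34 were nearest to VIM, and TOR1AIP1 and CHD1 to FN1. TMEM9 and GTF3C5 were nearest to SNAI1, UNC5D and PHF6 to SNAI2, and MBOAT2 and DFFB to TWIST1. Distances were at most 0.0393 on the log2 scale. Within a distance of 0.1 there were 238 genes for CDH1 and 54 for FN1 but 11 for SNAI2 and 8 for TWIST1, so the patterns of the last genes were the least common.

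To see whether the 10 genes moved as others of their kind did, 8 companion lists were described, holding 150 genes of which 119 were tested. The junction list (25 tested) had 16 genes lower and 8 higher under both hairpins. Of all tested genes, 57.2% were lower, 24.5% higher and 4.60% at least 2-fold lower under both hairpins. The junction list had medians of -0.21 and -0.51 beside -0.17 and -0.37 for all tested genes. At least 2-fold lower under both were CTNNB1, encoding beta-catenin, which links cadherins to the actin cytoskeleton and acts in Wnt signalling, and TJP1, encoding the tight junction scaffold ZO-1. CTNNB1 was at 143.28, 62.95 and 70.04 TPM, and TJP1 at 28, 12.84 and 10 TPM. Neither passed 2-fold under both hairpins when centred on the median gene or with the GC trend removed. TJP3, encoding the related ZO-3, was higher, at 3.97 TPM in shCON against 13.93 and 13.59 TPM, a call lost with the GC trend removed. Relative to its GC bin alone, without the median over all tested genes added back, TJP3 stood at 1.35 and 1.33, past 2-fold under both hairpins. The most abundant were CLDN7 (127.53, 205.99 and 165.77 TPM), CLDN4 (117.8, 165.47 and 139.18 TPM) and PKP3 (122.72, 128.4 and 143.98 TPM), claudins of the tight junction and a desmosomal plakophilin. Of the other catenins, CTNND1 was at 61.11, 55.31 and 38.76 TPM and CTNNA1 at 4.13, 3.42 and 2.59 TPM.

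Among the cadherins, the mesenchymal members held a smaller share under each hairpin than in shCON. P-cadherin (CDH3), an epithelial cadherin, was at 51.66, 50.62 and 56.82 TPM, and CDH11, a mesenchymal cadherin, at 9.37, 2.39 and 2.05 TPM. Of the summed TPM of CDH1, CDH2, CDH3 and CDH11, the mesenchymal CDH2 and CDH11 held 9.25% and 6.70% in shCON, against 5.55% and 2.18% and then 4.87% and 1.85% with the hairpins. CDH3 held 37.0%, 46.2% and 51.4%, and CDH1 47.1%, 46.1% and 41.9%. This set of 4 was put together after the values were seen.

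Keratins other than KRT18 were mostly higher. Of 10 tested keratins 6 were higher and 1, KRT8, lower under both hairpins, with medians of 0.42 and 0.51. KRT15, a keratin of basal epithelium, was at least 2-fold higher, at 11.53, 47.47 and 26.41 TPM, a call lost with the GC trend removed. Relative to its GC bin alone, without the median over all tested genes added back, KRT15 stood at 1.88 and 1.16, past 2-fold under both hairpins. The most abundant by mean over the libraries were KRT81 (2614.16, 5143.81 and 5401.52 TPM), KRT7 (1717.33, 1653.81 and 2337.69 TPM) and KRT19 (507.12, 837.54 and 957.97 TPM). KRT81 has near-identical relatives in the hair keratin cluster, so its share of reads is uncertain. The keratin list was rich in GC, with a median of 58.4% against 49.8% for all tested genes, and relative to genes of like GC content its medians were 0.35 and 0.43. The epithelial regulators and surface genes (20 tested) had 11 (55.0%) lower and 8 (40.0%) higher, against 57.2% and 24.5% of all tested genes. Their medians were -0.01 and -0.15, and none passed 2-fold under both hairpins. Their most abundant genes were SPINT2 (377.54, 458.91 and 416.41 TPM) and ST14 (173.24, 191.16 and 195.58 TPM), an inhibitor of surface serine proteases and such a protease, and MAL2 (237.65, 180.64 and 95.83 TPM).

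**Figure D4:**
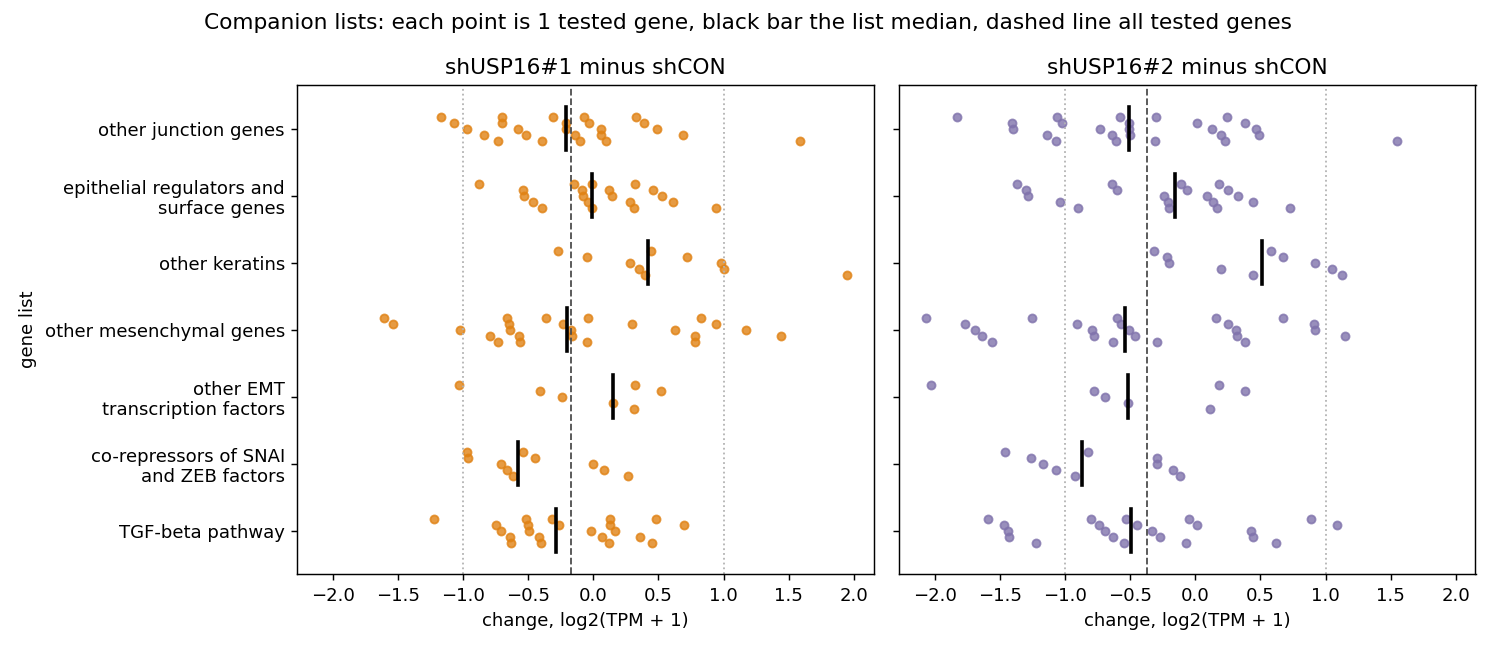
Differences from shCON on the log2(TPM + 1) scale for the tested genes of 7 companion lists, 1 point per gene, under shUSP16#1 (left) and shUSP16#2 (right). Black bars are list medians, the dashed line marks the median over tested genes and the dotted lines mark 2-fold. The keratin medians (0.42 and 0.51) lie right of the dashed lines, those of the co-repressors (-0.58 and -0.87) left of them.

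Of 37 other mesenchymal genes 24 were tested, and 14 (58.3%) were lower and 7 (29.2%) higher under both hairpins, shares near the 57.2% and 24.5% of all tested genes, with medians of -0.20 and -0.54. CDH11, THBS1 and NT5E were at least 2-fold lower, and of these THBS1 was not when centred or with the GC trend removed. Relative to its GC bin alone, without the median over all tested genes added back, CDH11 stood at -1.24 and -1.17. NT5E stood at -1.09 and -0.86 on that scale, short of 2-fold under shUSP16#2. THBS1, encoding the matrix protein thrombospondin-1, was at 509.39, 250.59 and 157.09 TPM, and NT5E, encoding the surface enzyme CD73, at 24.14, 7.63 and 7.07 TPM. S100A4, a calcium-binding protein widely used as a fibroblast marker, was higher, at 28.11 TPM in shCON against 78.17 and 63.55 TPM. LGALS1, encoding galectin-1, was the most abundant of the list, at 2210.54, 4253.09 and 4167.16 TPM, followed by CD44, at 1005.42, 605.65 and 706.97 TPM.

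Of 15 further EMT transcription factors 7 were tested. Of these, 3 (42.9%) were lower and 3 (42.9%) higher under both hairpins, against 57.2% and 24.5% of all tested genes. ETS1 was at least 2-fold lower, at 80.96, 39.11 and 19.06 TPM, a call lost when centred or with the GC trend removed. With ETS1 the most abundant by mean were TCF3 (45.14, 56.5 and 58.88 TPM) and SOX9 (32.07, 26.96 and 22.08 TPM). The co-repressors through which SNAI and ZEB factors act had 7 of 10 genes (70.0%) lower and none higher under both hairpins. The shares of all tested genes were 57.2% and 24.5%. The co-repressors had medians of -0.58 and -0.87, and none passed 2-fold under both hairpins. Relative to genes of like GC content these medians were -0.12 and -0.14. HDAC1 was at 124.16, 124.41 and 113.78 TPM, HDAC2 at 75.84, 45.92 and 33.15 TPM, and KDM1A at 47.54, 57.46 and 42.21 TPM. In the TGF-beta pathway, a main inducer of EMT, 13 of 22 tested genes (59.1%) were lower and 6 (27.3%) higher, shares near those of all tested genes, with medians of -0.29 and -0.49, or -0.01 and -0.07 relative to genes of like GC content. SMURF2, a ubiquitin ligase that acts on the TGF-beta receptors and SMADs, was at least 2-fold lower, at 79.63, 33.61 and 28.68 TPM, a call lost with the GC trend removed. The most abundant of that list by mean were ID1 (97.53, 159.6 and 208.71 TPM), LTBP3 (106, 144.72 and 144.18 TPM) and TGIF1 (87.46, 66.12 and 60.13 TPM). MIR205HG, the host gene of a microRNA that represses ZEB1, was at 4.71, 14.5 and 8.97 TPM, and MIR200CHG was at 0, 0 and 0.44 TPM. Mature microRNAs were not measured by these libraries.

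Over the 8 lists, 7 of 119 genes (5.88%) were at least 2-fold lower and 3 at least 2-fold higher under both hairpins, beside the 4.60% and 1.14% of all tested genes. Lower at any size were 54.6% and higher 32.8%, beside 57.2% and 24.5%.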

How the data were processed

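RNA from PC3 cells was sequenced in 3 libraries, 1 per condition. The authors deposited 1 table of TPM values, made from reads sequenced by Majorbio on the Majorbio Cloud Platform. The submitters' processing notes name CASAVA, HISAT2 and hg19; the quantification tool and annotation are not given in the sources used here. Of 60930 identifiers, 58516 were found in GENCODE release 29 (GRCh38), which gave gene types, overlaps, transcripts and GC content. The deposited table gives no coordinates. Its 3 repeated TPM columns hold identical values and were not used.

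Of entries sharing a name, the one with the highest mean was kept, and 1211 were left out. Genes averaging 1 TPM or more were counted as tested, with differences on the log2(TPM + 1) scale. GC content was pooled over the transcripts of a gene, and the 13296 tested genes with a value were put in 50 bins. No test was run, since each condition had 1 library. TPM holds no depth, so no interval is given.

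The genes and lists were chosen with earlier results of these data known. Named in each list were its 3 most abundant genes and all past 2-fold under both hairpins, for each state gene the 2 nearest patterns (not given for ZEB1, which was near 0), and known partners (KRT8, catenins, ZEB2). Promoters were taken from RefSeq (GRCh38.p14) and hairpin sequences from the study's supplementary list. Alternatives were the pseudocount, the TPM minimum, the fold, centring, rescaling to protein-coding genes, GC correction and each hairpin alone. Some marker genes used to check the cell line are not reported here. The steps that compute differences and 2-fold calls were tested on simulated data with known folds and no GC trend. The GC correction, centring, ratios and search for nearest patterns were not tested in this way. Python 3.11.15, numpy 2.4.6, pandas 2.3.3 and matplotlib 3.10.9 were used.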

Additional observations from a re-analysis of the deposited data

Results flagged for a closer look

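Genes named above whose differences from shCON had opposite signs under the hairpins were TWIST1, KRT7, HDAC1, KDM1A and CDH3. On the log2(TPM + 1) scale, TWIST1 was 0.12 under shUSP16#1 and -0.85 under shUSP16#2, KRT7 was -0.05 and 0.44, and KDM1A was 0.27 and -0.17. HDAC1, at 0.00 and -0.12, and CDH3, at -0.03 and 0.13, were close to the control. The opposite signs depended on the scaling. Centred on the median gene, only TWIST1 of the 5 kept them, at 0.29 and -0.48, while KRT7 was 0.12 and 0.81 and KDM1A 0.44 and 0.20. With the GC trend removed and the median over genes added back, only KDM1A kept them, at 0.33 and -0.15, while TWIST1 was -0.14 and -1.21. Relative to the GC bin alone, KDM1A did not keep them, at 0.51 and 0.22. On that scale TWIST1 was 0.03 and -0.84, and KRT7 -0.18 and 0.32. The comparisons share the control library, each rests on 1 library per hairpin, and the difference between the hairpins was not tested.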

How the results depend on the processing

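No paired analysis was possible because there was only 1 library in a condition. Removal of the GC trend (the median of a gene's GC bin, with the median over genes added back) from counts and ratios was chosen after seeing the data. Of the state genes, 0 were at least 2-fold lower under both hairpins. This became 1 (CDH2, 11.1%) with a pseudocount of 0.1, against 8.04% of all tested genes. After rescaling to protein-coding genes it was 2 (CDH2 and FN1, 22.2%), against 5.24%. At 1.5-fold it was 4 (EPCAM, CDH2, VIM and FN1, 44.4%), against 20.8%. With a single hairpin it was 0 under shUSP16#1, against 5.79%, and 5 (55.6%) under shUSP16#2, against 19.5%. The count of higher genes was 0 under every alternative run. Among companion genes 7 lower became 11 with a pseudocount of 0.1, 3 (CDH11, NT5E and SMURF2) when centred on the typical (median) gene, 22 at 1.5-fold, 4 (CDH11, MMP9, NT5E and SKI) with the GC trend removed and from 7 to 27 with a single hairpin, and 3 higher became 8, 11, 1 and 5 when centred, at 1.5-fold, with the GC trend removed and with either hairpin alone. The GC counts depend on the negative median added back. Relative to the GC bin alone, CDH11 (-1.24 and -1.17) stayed past 2-fold lower under both hairpins. MMP9 (-0.90 and -2.29), NT5E (-1.09 and -0.86) and SKI (-0.84 and -0.90) did not. On that scale TJP3 (1.35 and 1.33), KRT15 (1.88 and 1.16), S100A4 (1.54 and 1.42) and MIR205HG (1.67 and 1.26) were past 2-fold higher. Among all tested genes 627 lower became 1096 with a pseudocount of 0.1, 273 when centred, 2837 at 1.5-fold, 250 with the GC trend removed and from 789 to 2661 with a single hairpin, the higher count without shUSP16#1. There, 155 higher became 288, 341, 551, 99 and from 382 to 386 in the same order, and 96 with a minimum of 5 TPM. Counting in 1 hairpin or at 1.5-fold relaxes the condition by construction.

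With TPM + 1, the log2 differences of the CDH2 to CDH1 ratio were -0.60 and -0.63, and under shUSP16#2 those of VIM to KRT18, VIM to CDH1 and FN1 to CDH1 were -1.15, -0.74 and -1.18. With the GC trend removed they were -0.42 and -0.30 for CDH2 to CDH1, -0.35 and -1.00 for VIM to KRT18, -0.47 and -0.93 for VIM to CDH1, and -0.53 and -1.14 for FN1 to CDH1. Signs of single genes turned for KRT18 under shUSP16#2 when centred (0.28), for ZEB1 under shUSP16#2 when centred (0.03), and with the GC trend removed for ZEB1 (0.07 and 0.27), SNAI1 (-0.19 and -0.25), SNAI2 under shUSP16#1 (0.06) and TWIST1 under shUSP16#1 (-0.14). Without the median over genes added back, SNAI1 was at -0.02 and 0.12, and TWIST1 at 0.03 under shUSP16#1. The signs of CDH1, EPCAM, CDH2, VIM and FN1 held under every alternative run for them. The depth of the libraries is unknown.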
